A study of Homo sapiens with 4 samples.

Results

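The G1/S genes described here are the transcription factor gene E2F1, the cyclin genes CCND1, CCND3, CCNE1, CCNE2 and CCNA2, the kinase genes CDK2, CDK4 and CDK6, and the inhibitor gene CDKN1B. They were chosen by gene symbol as 10 of the 64936 named genes in the deposited table, and each symbol matched 1 row. The RNA came from HT-29, an established human line of colorectal adenocarcinoma, and from NCM460, a human line that the study uses as normal colonic epithelium. Each line was kept without treatment (control) or exposed for 24 h to 100 μg/mL sturgeon chondroitin sulfate (SCS), a sulfated polysaccharide found in animal cartilage. The labels give 1 serum and antibiotic supplement for both lines, but the methods of the study give NCM460 cells more serum than HT-29 cells and name no antibiotic for them, so the medium cannot be told apart from the line in comparisons between lines. No genetic change in either line and no vehicle for the control is named. The question was whether genes of the G1/S transition differ with SCS in the cancer line and in the line used as normal cells. The study speaks of biological replicates, but 1 library per condition was analysed, so no difference between conditions has a replicate check and no p-value is given within a line.

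A cell that leaves G1 first makes D cyclins, which switch on the kinases CDK4 and CDK6 and start the phosphorylation of the retinoblastoma protein. The phosphorylated protein lets go of E2F factors, and these drive the genes for cyclin E, cyclin A and the enzymes of DNA synthesis. Cyclin E and then cyclin A bind CDK2, which carries the cell into S phase, and p27, the product of CDKN1B, holds the CDK2 complexes in check. E2F1 and the E and A cyclins are periodic, with transcripts that are abundant around S phase, and CCND1 is a growth factor and WNT target gene well known from colon tumours.

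The E2F1 promoter is shown because E2F1 is a textbook target of its own protein family and had the lowest log2 fold change of the members in HT-29 cells. Of the 10 members, 7 had an entry in the set of RefSeq promoters used here, and CCND1, CCNE2 and CDK2 had none in that set. The window covers the 250 bases before the annotated start and lies at chr20:33686386-33686635 of GRCh38.p14, on the minus strand, with its last bases inside the gene's row of the deposited table. It is read 5′ to 3′ on the gene's strand, and capitals mark the E2F letters found.
E2F1 promoter: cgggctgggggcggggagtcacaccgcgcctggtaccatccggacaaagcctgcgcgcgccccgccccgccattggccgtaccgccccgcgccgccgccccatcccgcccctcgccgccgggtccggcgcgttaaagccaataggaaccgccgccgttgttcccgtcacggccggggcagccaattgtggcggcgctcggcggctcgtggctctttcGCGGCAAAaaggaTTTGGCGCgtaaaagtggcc
The letters searched, on both strands, were TTTCCCGC, TTTGGCGC, TTTCGCGC and TTTGCCGC, which do not overlap in this window. The first match, TTTGCCGC, lies on the opposite strand from 33 to 26 bases before the start, and the second, TTTGGCGC, lies on the gene's strand from 20 to 13 bases before it. Such letters were present in 761 (2.79%) of 27305 promoters of the same length. Among the members they were found in E2F1 alone, and the windows of CCND3, CCNE1, CCNA2, CDK4, CDK6 and CDKN1B did not hold them. A match describes the letters only and was not tied to binding in these cells. The absence of these exact letters does not show that a promoter lacks an E2F site.

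The deposited counts were fragments divided by a size factor, and division by the worth of 1 fragment returned whole fragments for 99.8% to 99.9% of the values above 0. The libraries held between 1156568 and 1654764 fragments. The mitochondrial genome took 35.8% of them in the HT-29 control and 13.8% with SCS, and 62.3% and 46.3% in NCM460 cells, so that nuclear loci had 1061700 (control) and 1383424 (SCS) fragments in HT-29 and 507692 and 621582 in NCM460. Levels are given as fragments scaled to library size (CPM) after scaling with edgeR's TMM factors, on which 3 fragments are worth 1.47, 1.25, 3.85 and 2.77 CPM in untreated HT-29, SCS-treated HT-29, untreated NCM460 and SCS-treated NCM460. Intervals are exact at 95% and cover counting error only, not the spread between cultures. Log2 fold changes of single genes include a prior count of 2, which draws them towards 0 where fragments are few. Folds, ratios, intervals and summed fragments include none, so a fold can be larger than its log2 fold change implies. A gene was called when its log2 fold change passed 1.5-fold and its interval left out no change. Of 12 colon epithelium markers, 9 exceeded 3 fragments in both HT-29 libraries and 6 in both NCM460 libraries, where KRT20, VIL1, LGALS4 and TSPAN8 were at 0. CDX2 went the other way, with 0 fragments in both HT-29 libraries and 14 and 12 in untreated and SCS-treated NCM460 cells. CDX1 was at 0 in every library, and CDH17 had 1 fragment in the HT-29 control and 0 elsewhere. Summed over that list, the level was 6572 CPM in the HT-29 control and 3540 with SCS, and 4346 and 2659 CPM in NCM460 cells. The summed level of 10 mesenchymal markers was 6.35 and 10.4 CPM for HT-29 and 125 and 134 CPM for NCM460. Most of the NCM460 sums came from SPARC (83.5 and 94.3 CPM), with VIM at 8.99 and 3.70 CPM and COL1A2, COL3A1, DCN and LUM at 0. All 5 blood cell markers were at 0 in every library. The lower epithelial sums with SCS rest mostly on KRT8, KRT18 and KRT19, with KRT8 at 3433 and 1464 CPM in HT-29 cells. VIL1 (67.4 and 9.99 CPM) and TSPAN8 (45.9 and 4.99) were lower with SCS in that line too. EPCAM (240 and 252 CPM), CDH1 (130 and 219), KRT20 (58.2 and 127) and LGALS4 went the other way there. In NCM460 cells EPCAM was higher with SCS (46.2 and 117 CPM) and CDH1 lower (123 and 91.5). Mitochondrial share and single epithelial markers thus moved with SCS in both lines, and their part in the results below was not tested.

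E2F1 (ENSG00000101412, chromosome 20, 33675683 to 33686404 of GRCh38, minus strand) had 46 fragments in untreated and 7 in SCS-treated HT-29 cells, and 9 in untreated and 12 in SCS-treated NCM460 cells. These correspond to 22.5, 2.91, 11.6 and 11.1 CPM. HT-29 with SCS was the low library, and its interval (1.17 to 6.002 CPM) lay below that of the HT-29 control (16.5 to 30.0 CPM), whereas the intervals of the NCM460 libraries overlapped almost wholly. E2F1 was 7.72-fold lower with SCS in HT-29 cells, at a log2 fold change of -2.51 (-4.34 to -1.79), and of the 12168 loci compared in that line, 69 (0.567%) lay at or below it. In NCM460 cells its log2 fold change was -0.05 (-1.43 to 1.37) and it was not called. In bulk RNA, fewer cycling cells and less RNA per cell cannot be told apart, which applies to every gene here.

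Both D cyclin genes were lower with SCS in HT-29 cells. CCND1 (ENSG00000110092, chromosome 11, 69641087 to 69654474, plus strand), the D cyclin that WNT signals induce, had 178 (control) and 65 (SCS) fragments in HT-29 and 135 (control) and 203 (SCS) in NCM460, or 87.0, 27.0, 173 and 188 CPM. Its intervals were apart in HT-29 cells (74.7 to 101 against 20.9 to 34.5 CPM) and overlapped in NCM460 cells (145 to 205 against 163 to 215 CPM). The level was 3.22-fold lower in HT-29 cells (log2 fold change -1.64, -2.12 to -1.27), and in NCM460 cells the log2 fold change was 0.11 (-0.21 to 0.44). CCND3 (ENSG00000112576, chromosome 6, 41934933 to 42050357, minus strand), the D cyclin typical of lymphoid cells but made in many tissues, had 66, 33, 18 and 17 fragments in untreated HT-29, SCS-treated HT-29, untreated NCM460 and SCS-treated NCM460, or 32.3, 13.7, 23.1 and 15.7 CPM. It was 2.35-fold lower with SCS in HT-29 cells (-1.16, -1.88 to -0.61), where the intervals were apart, and in NCM460 cells the log2 fold change of -0.52 (-1.60 to 0.48) was not called. The other D cyclin gene, CCND2, was listed at 0 in all 4 libraries.

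Their kinases had the smallest called differences among the members in HT-29 cells. CDK4 (ENSG00000135446, chromosome 12, 57747727 to 57756013, minus strand) had 123 (control) and 92 (SCS) fragments in HT-29 and 68 (control) and 79 (SCS) in NCM460, or 60.1, 38.3, 87.3 and 73.0 CPM. Its HT-29 intervals were narrowly apart (49.96 to 71.7 against 30.9 to 47.0 CPM), the log2 fold change was -0.63 (-1.06 to -0.25), and this call was lost when libraries were scaled by total fragments only or when a trend on GC content was subtracted. In NCM460 cells the log2 fold change of CDK4 was -0.25 (-0.74 to 0.23). CDK6 (ENSG00000105810, chromosome 7, 92604921 to 92836594, minus strand), the other partner of the D cyclins, had 154, 84, 52 and 116 fragments in the same order, or 75.3, 35.0, 66.8 and 107 CPM. It was 2.15-fold lower with SCS in HT-29 cells (-1.08, -1.51 to -0.71) and 1.61-fold higher in NCM460 cells (0.67, 0.20 to 1.18). The NCM460 call was lost in 5 of 12 alternatives, a total that includes those changing only which loci were compared, which could not alter it. With the GC trend subtracted the value turned to -0.23.

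CCNE1, CCNA2 and CDK2, which act after the D cyclins, were all called lower in HT-29 cells. CCNE1 (ENSG00000105173, chromosome 19, 29811898 to 29824308, plus strand), the activating cyclin of CDK2 at the end of G1, had 35 (control) and 10 (SCS) fragments in HT-29 and 17 (control) and 12 (SCS) in NCM460, or 17.1, 4.16, 21.8 and 11.1 CPM. The HT-29 intervals did not overlap, and the level was 4.11-fold lower with SCS (log2 fold change -1.76, -3.22 to -0.99). In NCM460 cells CCNE1 was also at the lower value with SCS, at -0.90 (-2.17 to 0.18), with overlapping intervals and no call. CCNE2 (ENSG00000175305, chromosome 8, 94879770 to 94896678, minus strand), the second E cyclin gene, stood near the floor, with 6 (control) and 2 (SCS) fragments in HT-29 and 0 and 1 in NCM460. Its ratio of SCS to control in HT-29 cells was 0.284 with a log2 interval from -5.16 to 0.67, and a difference was not detectable at this depth. No fold is given for it in NCM460 cells.

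CCNA2 (ENSG00000145386, chromosome 4, 121816444 to 121823933, minus strand), the cyclin A of dividing body cells that serves CDK2 in S phase and CDK1 in G2, had 64 (control) and 26 (SCS) fragments in HT-29 and 8 (control) and 43 (SCS) in NCM460, or 31.3, 10.8, 10.3 and 39.8 CPM. The HT-29 control and NCM460 with SCS were the high libraries, and in each line the 2 intervals were apart. It was 2.89-fold lower with SCS in HT-29 cells (-1.43, -2.25 to -0.85) and 3.87-fold higher in NCM460 cells (1.83, 0.85 to 3.25), and with the GC trend subtracted the NCM460 value was 0.82 (-0.16 to 2.25) and not called. CCNA1, its germ line relative, was listed at 0 in every library. CDK2 (ENSG00000123374, chromosome 12, 55966769 to 55972784, plus strand), the kinase of both cyclins, had 67, 16, 16 and 35 fragments in untreated HT-29, SCS-treated HT-29, untreated NCM460 and SCS-treated NCM460, or 32.7, 6.66, 20.5 and 32.4 CPM. It was 4.92-fold lower in HT-29 cells (-2.10, -3.18 to -1.495), where its intervals were far apart, and in NCM460 cells the intervals overlapped at a log2 fold change of 0.62 (-0.24 to 1.61).

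CDKN1B (ENSG00000111276, chromosome 12, 12715058 to 12722371, plus strand), the inhibitor gene, was the single member whose log2 fold change in HT-29 cells was above 0. It had 73 (control) and 107 (SCS) fragments in HT-29 and 8 (control) and 20 (SCS) in NCM460, or 35.7, 44.5, 10.3 and 18.5 CPM. The intervals overlapped within each line, and both NCM460 libraries lay below both HT-29 libraries. The log2 fold changes were 0.31 (-0.12 to 0.77) in HT-29 cells and 0.78 (-0.40 to 2.24) in NCM460 cells, and neither was called.

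**Figure D1:**
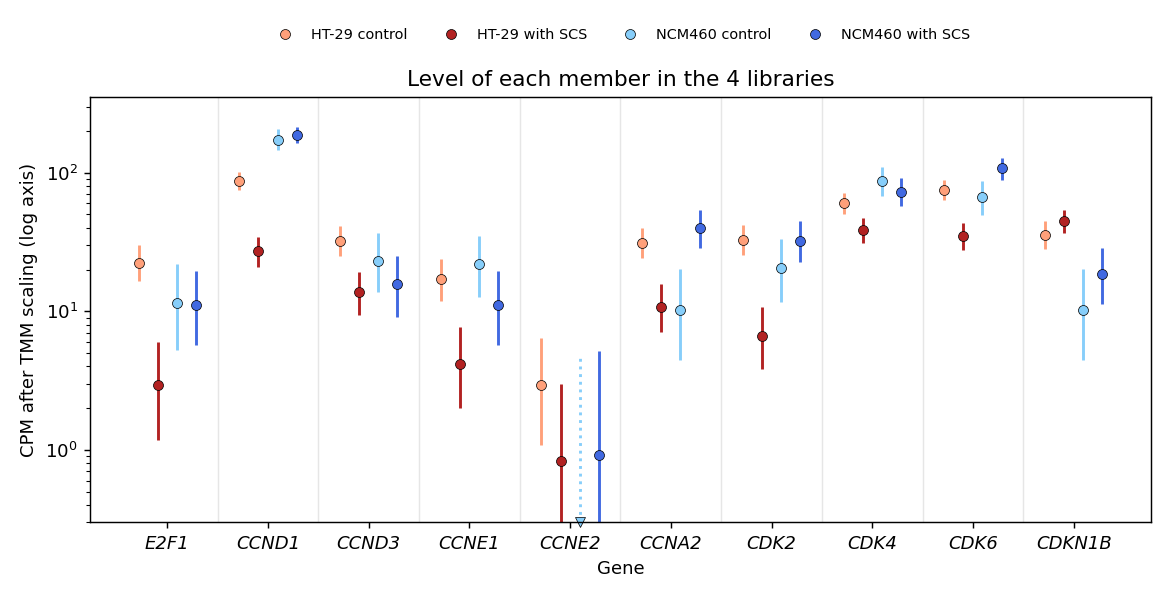
Level of each of the 10 members in CPM after TMM scaling on a log axis, 1 point per library and vertical lines for exact 95% counting intervals, with CCNE2 in the NCM460 control at 0 drawn as a triangle at the lower edge with its upper limit of 4.74 CPM. HT-29 with SCS lies below the HT-29 control in every member but CDKN1B, which is at 44.5 against 35.7 CPM.

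Of the 10 members, 8 were called lower in HT-29 cells and 0 higher, where 14.8% of the 12168 loci compared were called lower and 16.8% higher. The median log2 fold change of the members was -1.29, against 0.07 over all loci compared. E2F1, CCND3, CCNE1 and CDK2 are among the changed genes that the study itself drew from these HT-29 libraries, so their direction there is not independent evidence. In order of log2 fold change the members ran from E2F1 through CDK2, CCNE1, CCND1, CCNA2, CCND3, CDK6, CCNE2 and CDK4 to CDKN1B. Neighbours in this order had overlapping intervals except CDK4 and CDKN1B. The loci at or below CDK2 made up 1.22% of those compared, those at or below CCNE1 2.48% and those at or below CDK4 18.6%. At a log2 fold change over 1.5, which 4.36% of loci passed downwards, E2F1, CDK2, CCNE1 and CCND1 remained called. The calls of E2F1, CCND1, CCND3, CCNE1, CCNA2, CDK2 and CDK6 held in all 12 alternatives at 1.5-fold. Among these, a mean of at least 5 CPM and at least 1 fragment changed only which loci were compared. They could not change these calls and lend them no support. Scaling by total fragments only shifted the all-locus median by 0.25 (log2) and changed the calls over all loci from 2040 higher and 1799 lower to 3148 and 1115, and against that shift 7 members stayed called lower.

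**Figure D2:**
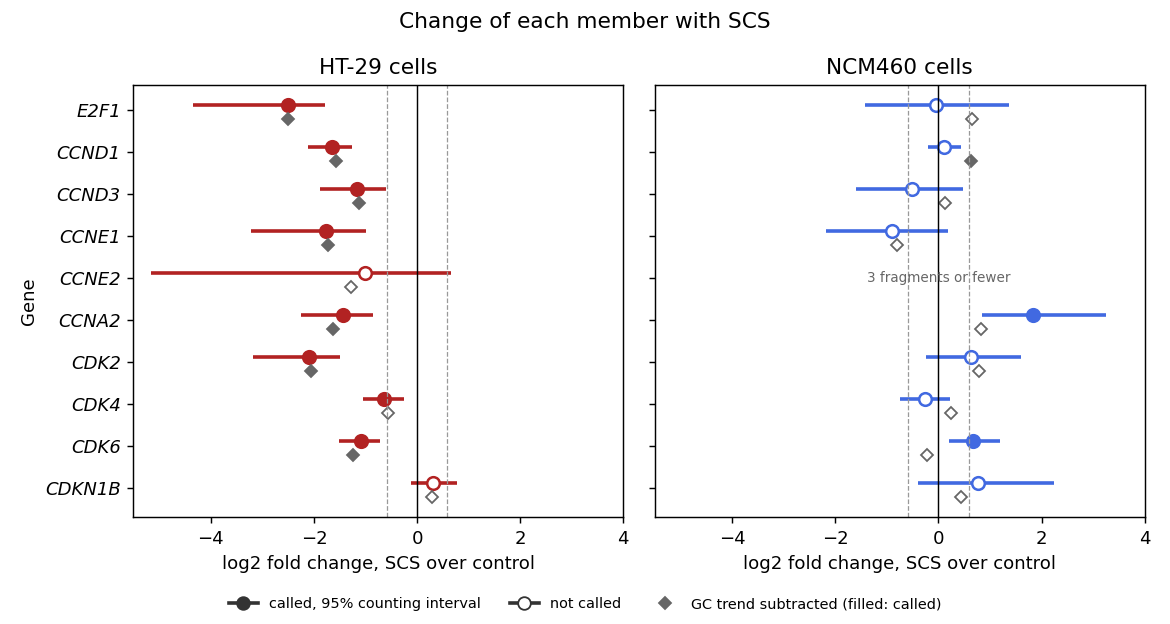
log2 fold change of SCS over control for each member in HT-29 cells (left) and NCM460 cells (right), with lines for 95% counting intervals, filled circles for calls, grey diamonds for values after the GC trend was subtracted, and dashed lines at 1.5-fold. In HT-29 cells 8 circles are filled and left of 0, and in NCM460 cells CCNA2 and CDK6 are filled and right of 0 while their diamonds are open.

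In NCM460 cells 9 members were compared, and CCNA2 and CDK6 were called higher and 0 lower, where 15.4% of the 12657 loci compared were called higher and 13.8% lower. The median of the members was 0.11, against 0.03 over all loci, and this count is not read as a result about the members. Log2 fold changes in this line went with the GC content of the transcripts, at a Spearman's rho of -0.77 across 6923 protein-coding loci of at least 10 CPM, compared with -0.18 across 7085 loci in HT-29 cells. Loci are not independent replicates, and these correlations describe the libraries, since all loci of a line come from the same 2 libraries. In the fifth of NCM460 loci lowest in GC the median log2 fold change was 1.22 and 40.6% were called higher, and in the fifth highest in GC the median was -0.72 and 35.8% were called lower. CCNA2 (42.1% GC), CDK6 (43.0%) and CDKN1B (47.2%) are the members compared there that are poor in GC, and E2F1 (62.5%) and CCND3 (59.3%) are rich in it. Scaling by total fragments only changed the calls over all NCM460 loci from 1943 higher and 1747 lower to 3945 and 248, and 5 members were then called higher. With the scaling of the deposited columns these calls were 1577 higher and 2182 lower, with CCNA2 as the single member called. At a log2 fold change over 1.5, which 8.89% of loci passed upwards, CCNA2 remained called. On the deposited FPKM scale, where 25.2% of loci were over 1.5-fold higher and 41.4% lower, CCNA2 was higher and CCNE1 lower. After the GC trend was subtracted, 5.17% of loci were called higher and 5.71% lower, and CCND1 was the single member called, at 0.62 (0.30 to 0.95). With the same step in HT-29 cells, 7 members were called lower and 0 higher (background 15.9% and 14.5%), and CDK4, at -0.56, was not. The value of E2F1 with the trend subtracted was -2.50 in HT-29 cells and 0.66 (-0.72 to 2.08) in NCM460 cells. How far the GC relation or the mitochondrial share set the NCM460 values was not tested.

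**Figure D3:**
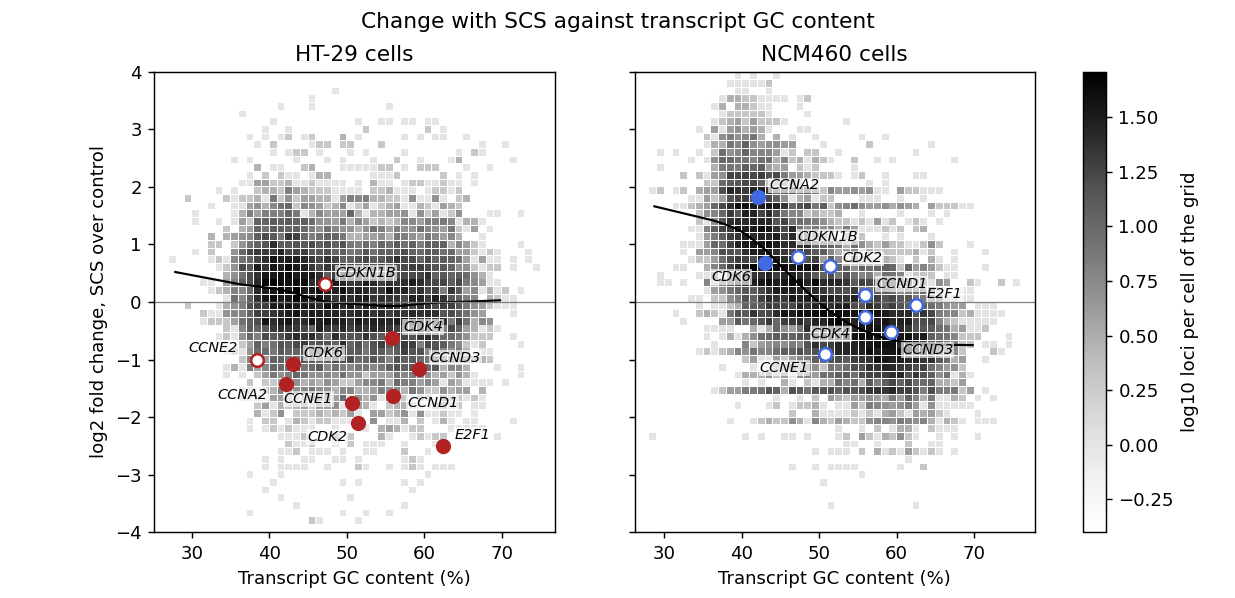
log2 fold change with SCS against transcript GC content in percent, with the loci of each line as a grey density, the lowess trend as a black line and the members compared as circles, filled where called. The trend is shallow in HT-29 cells, from 0.31 at 36.0% GC to -0.07 at 56.0%. It falls steeply in NCM460 cells, from 1.42 at 36.3% GC to -0.52 at 56.2%, where CCNA2 and CDK6 lie at low GC and E2F1 at high GC.

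The response of the members was set side by side between the lines as the log2 ratio of the SCS to control ratio in NCM460 cells to that in HT-29 cells. This is a conditional odds ratio of the fragments with no prior count, given with its exact interval for counting error, and it is therefore not the plain difference of the log2 fold changes above. It was 2.83 (0.99 to 4.83) for E2F1, 1.80 (1.26 to 2.34) for CCND1 and 2.92 (1.69 to 4.23) for CDK2. For CCNA2 it was 3.45 (2.12 to 4.94) and for CDK6 1.79 (1.15 to 2.43). These 5 intervals left out 0, also with the GC trends subtracted, when they were 3.54 (1.69 to 5.53), 2.23 (1.70 to 2.78), 3.05 (1.82 to 4.36), 2.64 (1.31 to 4.13) and 1.05 (0.41 to 1.69) in the same order. The intervals of CCND3, CCNE1, CDK4 and CDKN1B held 0, at 0.67, 1.04, 0.39 and 0.53. With the GC trends subtracted the intervals of CCND3 and CDK4 left out 0 as well, at 1.29 (0.05 to 2.53) and 0.83 (0.19 to 1.47). Since each line has 1 library per condition, the spread between cultures behind these differences is unknown.

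Without SCS, 3 of the 10 members were called between the lines. With total fragments as the scaling E2F1, CCND3, CCNA2, CDK2, CDK6 and CDKN1B, that is 6 members, were called lower in NCM460 cells and 0 higher. The share of all loci called under that scaling was not counted, so these 6 calls are not read as a result about the members. CCND1 was the single gene called higher in the NCM460 control than in the HT-29 control, by 1.99-fold, but with total fragments as the scaling this turned to a log2 difference of -0.10. CCNA2 was 3.05-fold and CDKN1B 3.47-fold lower in the NCM460 control, where the background was 23.1% called higher and 25.3% lower. In the presence of SCS, 7 of the 9 members compared were called higher in NCM460 cells (background 22.4%) and CDKN1B was called lower (background 24.2%). The largest of these ratios was that of CCND1 at 6.94-fold, followed by CDK2 at 4.86-fold, E2F1 at 3.81-fold, CCNA2 at 3.67-fold and CDK6 at 3.07-fold. CCNE1 was 2.67-fold and CDK4 1.91-fold higher, and for CCND3 the log2 difference of 0.18 (-0.74 to 1.08) was not called. With total fragments as the scaling the calls of E2F1, CCNE1 and CDK4 were lost, and those of E2F1 and CCNE1 also when libraries were thinned to equal nuclear depth.

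Ratios between 2 members within a library do not depend on the scaling of the libraries. The ratio of CDKN1B to CDK2 fragments went from 1.09 to 6.69 with SCS in HT-29 cells, a log2 change of 2.61 (1.67 to 3.61), and was 0.5 and 0.571 in NCM460 cells, a change of 0.19 (-1.41 to 1.87). Per length, on the deposited FPKM scale, CDKN1B stood at 1.09 times CDK2 in the HT-29 control and at 4.58 times with SCS, the transcript of the inhibitor against that of its target kinase. Against CDK4, E2F1 changed by -2.29 (-3.75 to -1.05), CDK2 by -1.64 (-2.62 to -0.73) and CCND1 by -1.03 (-1.63 to -0.44) in HT-29 cells. Fragments of CCND1 to CCND3, of CDK6 to CDK4, of CCNE1 to CDK2 and of CCNA2 to CDK2 kept ratios in HT-29 cells whose change had an interval with 0. In NCM460 cells CDK6 changed against CDK4 by 0.94 (0.24 to 1.64) and CCNE1 changed against CDK2 by -1.61 (-3.15 to -0.12), and the intervals of the other 6 of 8 pairs held 0. These ratios are free of the scaling but not of the GC relation, and with the GC trend subtracted CDK6 was at -0.23 and CDK4 at 0.25 in NCM460 cells, which is the opposite order.

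**Figure D4:**
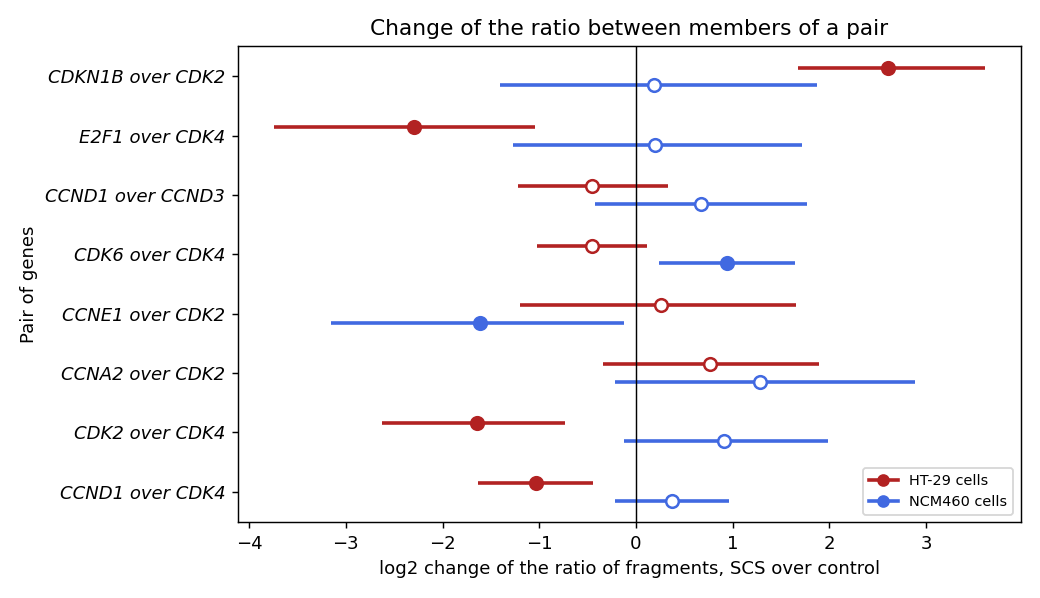
log2 change with SCS of the ratio of fragments between both members of 8 pairs, for HT-29 cells (red) and NCM460 cells (blue), with exact 95% conditional intervals as lines and filled circles where the interval leaves out 0. CDKN1B over CDK2 is far right of 0 in HT-29 cells, at 2.61, and E2F1, CDK2 and CCND1 over CDK4 are left of it.

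Summed by complex, the D cyclin fragments were 244 in the HT-29 control and 98 with SCS, a log2 fold change of -1.55 (-1.90 to -1.20), and those of CDK4 with CDK6 were 277 and 176, at -0.89 (-1.17 to -0.61). The fragments of the E and A cyclins with CDK2 were 172 and 54, at -1.90 (-2.37 to -1.45), the lowest of these 3 sums. In NCM460 cells the same 3 sums changed by 0.05 (-0.25 to 0.36), 0.23 (-0.11 to 0.57) and 0.68 (0.13 to 1.25). Within the last of these sums CCNA2 had 8 (control) and 43 (SCS) fragments, CDK2 16 and 35, and CCNE1 17 and 12. The GC trend was not subtracted from the sums, and CCNA2 alone was not called in NCM460 cells once it was, at 0.82 (-0.16 to 2.25).

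Levels of different genes were compared per length, on the deposited FPKM scale. CDK4 was the highest member in both HT-29 libraries, with 29.4 FPKM in the control and 17.3 with SCS. In NCM460 cells CCND1 came first, with 54.7 and 49.9 FPKM, ahead of CDK4 with 46.1 and 33.3 FPKM. With SCS, CDKN1B stood second in HT-29 cells (13.7 FPKM, after 14.05 in the control, where CDK4 and both D cyclins were above it), and its FPKM was thus slightly lower with SCS while its CPM was higher. E2F1 was among the low members in all libraries, at 8.22, 1.04, 4.38 and 3.82 FPKM in untreated HT-29, SCS-treated HT-29, untreated NCM460 and SCS-treated NCM460. The FPKM ratio of CCND1 to CCND3 was 1.13 (control) and 1.23 (SCS) in HT-29 and 4.75 and 6.08 in NCM460. CDK4 exceeded CDK6 by 3.60 and 4.40 times in HT-29 and by 3.17 and 1.54 times in NCM460 cells on this scale. The gene models of CCND1, CCNE2, CCNA2, CDK2, CDK4, CDK6 and CDKN1B overlap another listed gene. For CDKN1B the partner lies on the same strand, and for the rest on the other strand, where reads of both genes cannot be told apart if strand was not used in counting.

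Lists of other cell cycle genes were counted by the same rule. The E2F targets of S phase, which encode the replication machinery and nucleotide synthesis enzymes, held 28 genes, of which 25 were called lower and 0 higher in HT-29 cells, with a median log2 fold change of -2.27. UHRF1, which guides maintenance DNA methylation, was the lowest, with 203 fragments in the control and 9 with SCS (-4.33, -5.88 to -3.77), and the origin licensing gene CDC6 was the highest, with 61 and 66 (-0.11, -0.64 to 0.41). The 3 that were not called were CDC6, CDT1 and POLA1, of which the latter pair were named after their values were seen. In NCM460 cells 5 of the 28 were called higher and 8 lower, with a median of -0.20, and after the GC trend was subtracted 2 and 1. These were 17.9% and 28.6% of the list before that step and 7.14% and 3.57% after it. RRM1, the large subunit of ribonucleotide reductase, was the highest there, with 18 and 82 fragments (1.66, 0.97 to 2.54), and POLA2, a subunit of the primase complex, the lowest, with 22 and 11 (-1.37, -2.67 to -0.37). The E2F letters given above were present in 10 of the 25 promoters of this list that had an entry.

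The G2 and M phase list held 18 genes, with 15 called lower and 0 higher in HT-29 cells, beside 14.8% and 16.8% of all loci. Its median was -1.33. AURKB, the kinase of the chromosomal passenger complex, was the lowest (51 and 11 fragments, -2.16, -3.53 to -1.49). CENPA, the centromeric histone, was the highest (110 and 189 fragments, 0.54, 0.20 to 0.90) without passing 1.5-fold. The merged locus of CENPA holds 2 genes with identical values, so these values belong to both. In NCM460 cells 4 were called higher and 4 lower, each 22.2% of the list, beside 15.4% and 13.8% of all loci. PLK1, a mitotic kinase, had 142 and 56 fragments (-1.79, -2.29 to -1.36) and remained called with the GC trend subtracted, and CDK1, the kinase that starts mitosis, had 9 and 49 (1.86, 0.93 to 3.18) and did not. The letters TTTGAA, the core of the cell cycle homology region of late genes, were present in 10 of 14 promoters of this list and in 13.6% of all promoters, and in 0 of the 7 promoters of the members. Only these exact letters were searched and no variants of them, so their absence does not show that a member lacks the element. Several genes of this list and of the S phase list were drawn by the study from these libraries, so their counts are not independent evidence of direction.

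Among the 6 other CDK inhibitors, 2 were called higher and 1 lower in HT-29 cells. These were 33.3% and 16.7% of the list, beside 16.8% and 14.8% of all loci, and these counts are not read as a result about the list. CDKN1A, the gene of p21, had 25 fragments in the HT-29 control and 279 with SCS, a 9.502-fold higher level (3.12, 2.66 to 3.90), and 187 and 246 in NCM460 cells (-0.08, -0.36 to 0.20). CDKN2B, the gene of the CDK4 and CDK6 inhibitor p15, had 31 and 114 fragments in HT-29 cells (1.57, 1.06 to 2.27) and CDKN2C, the gene of p18, had 13 and 2, a ratio of 0.131 with a log2 interval from -6.12 to -0.79. Both were named after their values were seen. CDKN2A, the gene of p16 and ARF, had the lowest value among those expressed at 5 CPM or more, with 91 and 130 fragments (0.28, -0.12 to 0.69). In NCM460 cells CDKN1C, the gene of p57, was called higher (6 and 25 fragments, 1.44, 0.27 to 3.16) and CDKN2D, the gene of p19, lower (13 and 6 fragments, -1.40, -3.27 to -0.09). With the GC trend subtracted CDKN1C stayed called, at 2.16, and CDKN2D, at -0.70, did not.

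Of the 17 other E2F and pocket protein genes, 6 were called lower and 3 higher in HT-29 cells, with a median of -0.37. These were 35.3% and 17.6% of the list, beside 14.8% and 16.8% of all loci. E2F8, an atypical repressor, had 28 and 3 fragments, a ratio of 0.0912 with a log2 interval from -5.82 to -1.76, while E2F7, its close relative, had 34 and 80 (0.95, 0.41 to 1.63). In NCM460 cells 5 were called higher and 1 lower, and after the GC trend was subtracted 0 and 1. Before that step these were 29.4% and 5.88% of the list, beside 15.4% and 13.8% of all loci. RBL1, the gene of the pocket protein p107, had 1 and 13 fragments there, a ratio of 9.36 with a log2 interval from 0.49 to 8.64, and E2F4, the main partner of pocket proteins in resting cells, had 51 and 33 (-1.07, -1.78 to -0.44). Neither stayed called once the GC trend was subtracted.

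The 24 genes of CDK activation and G1/S protein turnover had 7 called lower and 3 higher in HT-29 cells. These were 29.2% and 12.5% of the list, beside 14.8% and 16.8% of all loci. SKP2, the ubiquitin ligase subunit that marks p27 for destruction, was the lowest, with 68 fragments in the control and 9 with SCS (-2.78, -4.34 to -2.14). AMBRA1, the substrate receptor for the breakdown of D cyclins, was the highest, with 48 and 96 (0.74, 0.25 to 1.30), and in NCM460 cells it was the lowest, with 45 and 28 (-1.12, -1.89 to -0.45), a call lost with the GC trend subtracted. Of 23 compared there, 8 were higher and 4 lower by the call rule, or 34.8% and 17.4%, beside 15.4% and 13.8% of all loci. Once the GC trend was taken out 0 were higher and 4 lower, of which DDB1, named after its values were seen, was the 1 gene also called lower before. MNAT1, a subunit of the CDK-activating kinase, had 2 and 17 fragments in NCM460 cells, a ratio of 6.12 with a log2 interval from 0.54 to 5.77. Its merged locus holds 3 genes with identical values, so these values are not those of MNAT1 alone.

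Cyclins and CDKs that act outside the G1/S and G2/M cycle, such as those of transcription, had 7 of 28 loci called higher and 0 lower in HT-29 cells, beside 16.8% and 14.8% of all loci. Their median was 0.13, beside 0.07 over all loci, with 15 above and 13 below 0, and with the GC trend subtracted it was -0.05, with 6 higher and 1 lower. No difference between this list and the members was tested. CDK14, a kinase of WNT signalling, was the highest, with 122 and 343 fragments (1.24, 0.96 to 1.57). Its merged locus holds 5 genes with identical values, so these values belong to all of them. CDK20 was the lowest at 16 and 8 fragments (-0.98, -2.66 to 0.08) and was not called. In NCM460 cells 4 were called higher and 2 lower, and 2 and 0 once the GC trend was taken out. Before that step these were 14.3% and 7.14% of the list, beside 15.4% and 13.8% of all loci. CCNT1, the cyclin of the elongation factor P-TEFb, had 11 and 69 fragments (2.08, 1.25 to 3.24) and stayed called. CDK11B, which shares its locus in the table with its near-identical copy CDK11A so that the values belong to both, had 58 and 40 (-0.99, -1.63 to -0.40) and did not, at -0.47.

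**Figure D5:**
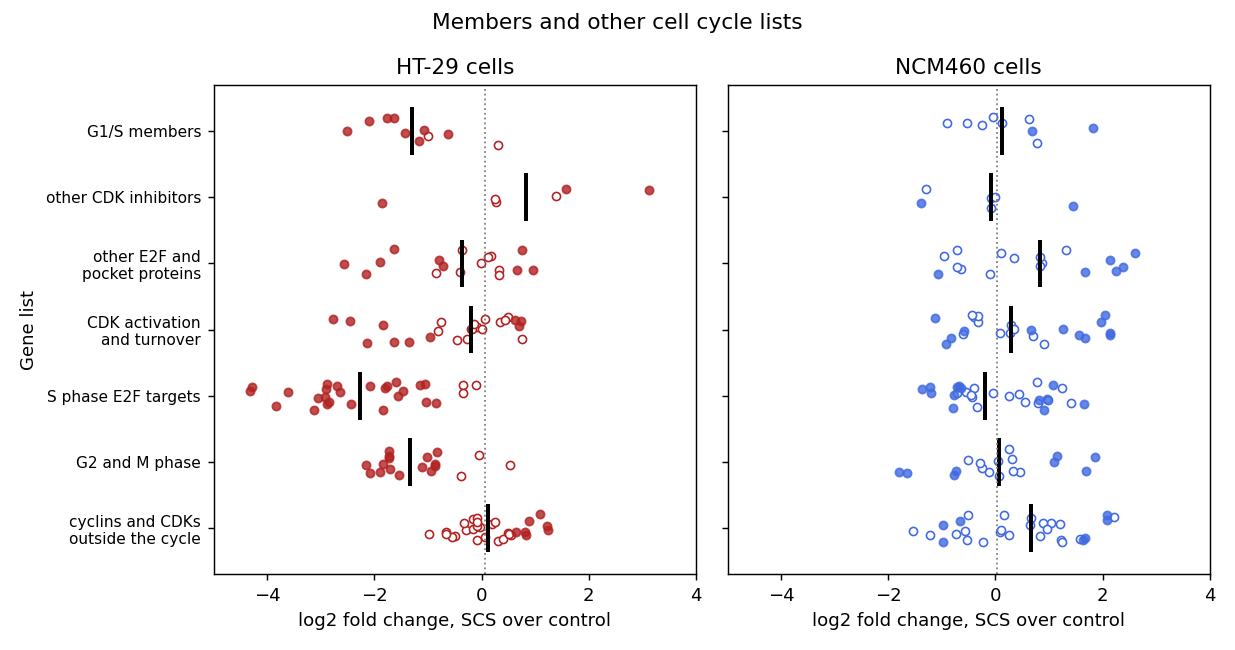
log2 fold change with SCS of each compared gene in the members and in 6 other lists, for HT-29 cells (left) and NCM460 cells (right), with filled circles for calls, black bars for list medians and a dotted line at the median of all loci. In HT-29 cells the medians of the members, the S phase targets and the G2 and M phase list are at -1.29, -2.27 and -1.33, and in NCM460 cells at 0.11, -0.20 and 0.06.

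The loci whose pattern over the 4 libraries was nearest to that of E2F1 were sought by the distance between log2 CPM values centred on their mean, among 9824 loci averaging 5 CPM or more. The nearest were PDGFC, a growth factor gene, at 0.155 and CHDH, the gene of choline dehydrogenase, at 0.158, followed by HS3ST1 at 0.258, CTPS1 at 0.262 and ZWINT at 0.265. PDGFC had 65, 10, 14 and 18 fragments in untreated HT-29, SCS-treated HT-29, untreated NCM460 and SCS-treated NCM460, next to 46, 7, 9 and 12 for E2F1. Among the other members CDK2 was nearest, at 0.678, and CDKN1B farthest, at 2.74. With 4 libraries, this is a description of likeness only.

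A common SCS effect in HT-29 and NCM460 cells was fitted with edgeR's quasi-likelihood model on the recovered fragments, in which the lines stand in as replicates. At an adjusted p under 0.05 (Benjamini-Hochberg over 12942 loci) it called 9 loci (0.0695%), 4 higher and 5 lower, with 695 at an unadjusted p under 0.05, and none of the 10 members was called. The adjusted p of E2F1 and CCNE1 was 0.918 at shared log2 fold changes of -1.55 and -1.51. Neither gene was called in NCM460 cells alone, where the value of E2F1 turned from -0.05 to 0.66 with the GC trend subtracted and to 0.54 with total fragments only. CCNA2 had a shared log2 fold change of 0.05 with an adjusted p of 0.999.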

How the data were processed

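The authors deposited a count value and an FPKM value per gene and library. The deposited count columns are a normalized signal, that is, fragments divided by a size factor of the library, and not the raw counts that the design of the tests had assumed. The deposited FPKM values are fragments per kilobase of transcript relative to sequencing depth, and 0.1 was added before log2 ratios. According to the labels, total RNA was made into libraries with a NEBNext Ultra kit, and no strand setting is given in the sources used here. The submitters' processing notes name bcl2fastq 2.17.1.14, cutadapt 1.9.1, Bowtie2 and HTSeq 0.6.1 and the build hg19, while the paper names Cuffdiff. The coordinates in the table are those of GRCh38, as 93.6% of the identifiers found in GENCODE 29 had the same start and end.

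Values were divided by the worth of 1 fragment (0.686, 0.577, 2.04 and 1.33 in untreated HT-29, SCS-treated HT-29, untreated NCM460 and SCS-treated NCM460) and rounded; a value within 0.05 of an integer was taken as whole. The 26 rows without a gene name held 0.0058% to 0.0352% of fragments and were left out. Adjacent rows with identical values were merged, giving 18650 loci, of which 1812 held more than 1 gene. TMM factors (edgeR 4.0.16, R 4.3.3) were 1.24, 1.50, 0.578 and 0.935. Log2 fold changes of single genes had a prior count of 2, and folds, ratios, intervals and sums had none. A locus was compared where the libraries of a pair averaged 1 CPM or more, and intervals were exact Clopper-Pearson intervals (scipy 1.17.1). Within a line no count test can be fitted with 1 library per condition. GC trends were lowess curves (span 0.3, statsmodels 0.14.6) on transcript GC content from GENCODE 29. The steps were tested on simulated counts. The members, the gene lists and the tests were chosen with earlier results of these data known. Named genes are all members, the highest and lowest of each list in each line (mean of 5 CPM or more), and the 5 loci nearest to E2F1. Comparisons between the lines, between pairs of members and the model over both lines were added after the data had been seen. Promoters were taken from RefSeq on GRCh38.p14.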

Additional observations from a re-analysis of the deposited data

Results flagged for a closer look

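CCNA2 and CDK6 were called in opposite directions with SCS in the 2 lines, lower in HT-29 cells and higher in NCM460 cells. The log2 odds ratio of their fragments between the lines, NCM460 over HT-29 and with no prior count, was 3.45 for CCNA2 and 1.79 for CDK6, and 2.64 and 1.05 with the GC trends subtracted. The call in NCM460 cells does not stand under every setting: with the GC trend subtracted CCNA2 was at 0.82 (-0.16 to 2.25) and not called, and CDK6 turned to -0.23. CDK6 lost its NCM460 call in 5 of 12 alternatives, counting those that changed only which loci were compared and could not alter it. With 1 library per condition the difference between the lines was not tested against the spread of cultures.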

How the results depend on the processing

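No paired analysis was possible because each condition had 1 library and the labels give no replicate numbers, and for the same reason no library could be left out. Of the 100 values of members in HT-29 cells under the alternatives, 99 moved by less than their interval, and of 90 in NCM460 cells 83 did. The 8 members called lower in HT-29 cells became 4 at a log2 fold change over 1.5. In NCM460 cells the 2 members called higher became 1 (CCNA2) with DESeq2's size factors, the authors' scaling, the length trend subtracted, deposited FPKM or a log2 fold change over 1.5. With the GC trend subtracted neither of the 2 stayed called, and the 1 call was CCND1, at 0.62. The count became 5 with total fragments only, which put the median of the members at 0.80. The 0 members called lower there became 1 (CCNE1) with the expression trend subtracted and with FPKM. CDK6 turned to -0.23 in NCM460 cells with the GC trend subtracted, and CCND1 in the NCM460 over the HT-29 control to -0.10 with total fragments only. Over all loci in HT-29 cells, 1799 lower and 2040 higher became 1115 and 3148 with total fragments only and 530 and 548 at a log2 fold change over 1.5, and FPKM gave 3729 lower and 2696 higher. In NCM460 cells 1747 lower and 1943 higher became 248 and 3945, 340 and 1125, 5238 and 3192 with FPKM, and 723 and 654 with the GC trend subtracted. Total fragments only shifted the median of all loci by 0.25 and 0.54, and FPKM by -0.19 and -0.37, in HT-29 and NCM460 cells. The cause of these moves was not tested. Low depth limits E2F1, CCND3, CCNE1, CCNE2 and CDKN1B in NCM460 cells, where each of these has 20 fragments or fewer in both libraries.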
